A study of Mus musculus with 3 samples.

Results

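The Toll-like receptors described here are 10 mouse genes, Tlr1 to Tlr9 and Tlr13, chosen by name with earlier results of these data known. They are read by 16 probe sets (groups of short oligonucleotides on the array) that the array's annotation assigns to one of these genes alone, of 38533 probe sets and 17886 genes analysed. Of the 10, Tlr1, Tlr2, Tlr4, Tlr5 and Tlr6 encode receptors of the cell surface and Tlr3, Tlr7, Tlr8, Tlr9 and Tlr13 encode receptors of endosomes. RNA came from dendritic cells (DCs) that wild-type mouse bone marrow gave rise to in 5 days of culture with granulocyte-macrophage colony-stimulating factor, the myeloid growth factor that all groups received. Flow cytometry separated the cultures by PDL2, a ligand of the inhibitory receptor PD-1 on T cells. The groups were PDL2-positive cells left untreated, PDL2-negative cells given lipopolysaccharide (LPS) at 100 ng/ml, and PDL2-negative cells left untreated, with 1 array each. The length of the LPS treatment, and the strain, sex, age and number of mice, are not given in the sources used here.

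Toll-like receptors are membrane proteins that bind conserved microbial molecules and signal through a shared cytoplasmic domain, mostly by way of the adaptor MyD88, to NF-kB and interferon regulatory factors. Those of the surface bind bacterial cell wall and flagellar components, and those of endosomes bind nucleic acids after the cell has taken up and degraded their source. In DCs they are known for starting maturation, in which cells lose the capacity to take up antigen and gain the capacity to prime T cells.

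With 1 array per group no spread between cultures can be estimated and no test between groups was possible, so every difference below is described by its size alone. Values are log2 signals after quantile normalization, with a floor at the median of all values, 5.58. A gene counts as measured in a comparison when either of the arrays compared read above this floor, and it is termed higher or lower if the brightest of its probe sets differed by at least 2-fold. Where 1 of the 2 arrays was below the floor, the fold is a lower bound. The only error measure is technical, how far a gene's 2 brightest probe sets disagreed. Scaled to a single probe set, its robust SD on the log2 scale was 0.21 in the PDL2 comparison (4251 genes), 0.29 in the LPS comparison (4230 genes) and 0.31 between PDL2-positive and LPS-treated cells (4142 genes). Signals of different genes come from different probes, so a level is compared only with the same gene's level on another array. In RNA from sorted populations, fewer cells of a type and less RNA per cell cannot be told apart.

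The sorted gene Pdcd1lg2, which encodes PDL2, had a signal of 11.73 in PDL2-positive cells, 9.44 in LPS-treated cells and 8.40 in PDL2-negative untreated cells. Of 6 DC markers, all lay above the floor on every array, among them Itgax, which encodes CD11c, at 9.81 in PDL2-positive, 10.80 in LPS-treated and 11.48 in PDL2-negative untreated cells. Itgax was the 1 DC marker lower by 2-fold in the PDL2 comparison, and 2 were higher: Flt3, a growth factor receptor gene of DCs, had 9.40 in PDL2-positive cells, against 7.51 in PDL2-negative untreated cells, and Zbtb46, a DC transcription factor gene, had 9.44 in PDL2-positive cells, against 7.08 in PDL2-negative untreated cells. After LPS 0 of the 6 differed by 2-fold. The quartiles of the deposited values differed between arrays by 0.03, 0.03 and 0.22 (25th, 50th and 75th percentile).

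**Figure D1:**
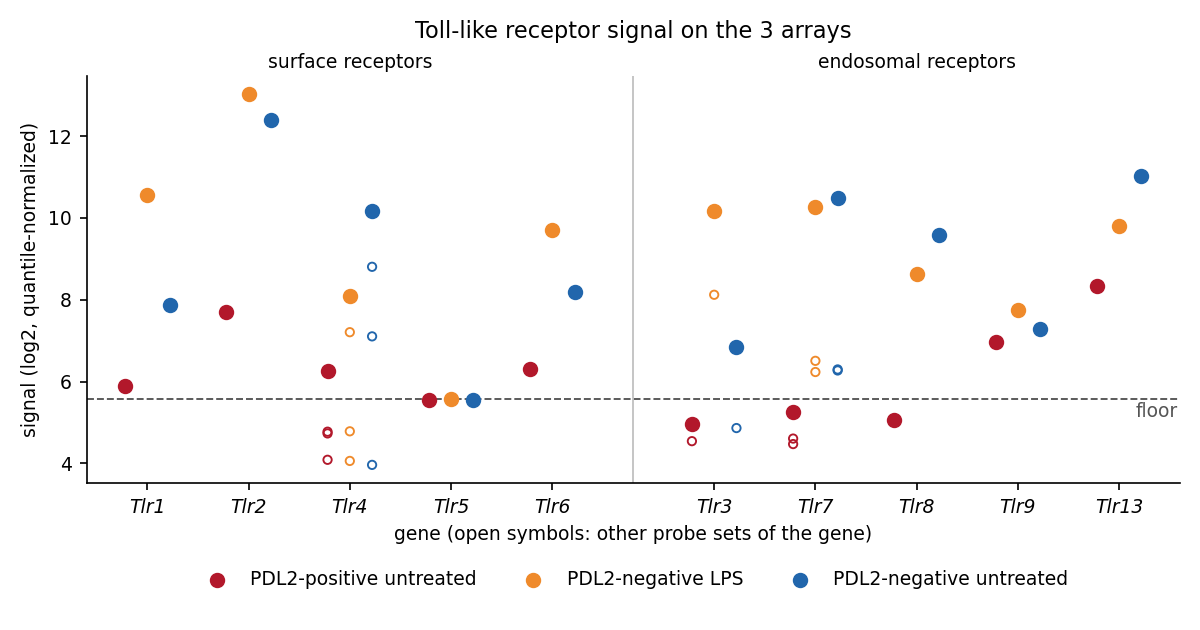
Log2 signal of the 10 receptors in PDL2-positive untreated (red), LPS-treated PDL2-negative (orange) and PDL2-negative untreated cells (blue), 1 array each. Filled symbols are the brightest probe set of a gene, open symbols its other probe sets, and the dashed line is the floor at 5.58. All receptors but Tlr5, which stayed at the floor, had their lowest signal in PDL2-positive cells, Tlr9 by less than 2-fold. The share of all genes with their lowest signal there was not counted.

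Across the 3 arrays, 9 of the 10 receptors had their lowest signal in PDL2-positive cells, and the exception was Tlr5. The share of all genes with their lowest signal there was not counted. By the 2-fold rule 8 receptors were lower there than in PDL2-negative untreated cells, beside 13.0% of all measured genes. Against LPS-treated cells 8 were lower, beside 12.6%. For Tlr9 the log2 difference from PDL2-negative untreated cells was only -0.31. The receptors differed in where they were highest. Tlr1, Tlr2, Tlr3, Tlr6 and Tlr9 were highest after LPS, and Tlr4, Tlr7, Tlr8 and Tlr13 were highest in PDL2-negative untreated cells. 6 receptors lay above the floor on all 3 arrays. Tlr3, Tlr7 and Tlr8 lay below it in PDL2-positive cells. The single probe set of Tlr5, the flagellin receptor gene, had 5.55 in PDL2-positive, 5.58 in LPS-treated and 5.55 in PDL2-negative untreated cells, and its deposited value was the same number, 5.56, on all 3 arrays. Identical deposited values on all arrays were held by 18.2% of the probe sets analysed, and the cause was not tested. Tlr5 thus gave no level above background, and it enters the LPS counts only because normalization set it 0.001 above the floor on that array.

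The LPS comparison asks how the receptor transcripts of PDL2-negative DCs differ after the ligand of Tlr4 is added. After LPS, 3 of the 10 receptors were higher (Tlr3, Tlr1 and Tlr6), 2 were lower (Tlr4 and Tlr13) and 5 differed by less than 2-fold. Over the 11000 measured genes, 9.17% were higher and 13.8% lower. The median log2 difference was 0.23 over the receptors and 0.02 over all measured genes.

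Tlr3, which encodes the endosomal receptor for double-stranded RNA, had a signal of 10.17 after LPS, against 6.84 in untreated cells. That made it 10.05-fold higher, and 1.20% of the 10163 genes above the floor on both arrays had a larger increase. A second probe set of Tlr3 moved the same way, with 8.12 after LPS and 4.86, below the floor, in untreated cells, a log2 difference of at least 2.54. Tlr3 differs from the other receptors in signalling through the adaptor TRIF and not through MyD88.

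Tlr1 and Tlr6 encode the partners with which Tlr2 binds triacylated and diacylated lipopeptides. Tlr1 had a signal of 10.56 after LPS, against 7.88 in untreated cells, and was 6.40-fold higher. Tlr6 had 9.71 after LPS, against 8.19 in untreated cells, and was 2.87-fold higher. Their shared partner Tlr2 had 13.02 after LPS, against 12.38 in untreated cells, a 1.56-fold difference that was larger than the disagreement between probe sets and below 2-fold. All members of this lipopeptide-binding group therefore had more signal with LPS, and both partners differed by more than Tlr2 did. Tlr1 and Tlr6 are neighbours on chromosome 5, with 0 protein-coding genes between them in RefSeq.

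Tlr4, the receptor gene for LPS itself, had a signal of 8.10 after LPS, against 10.16 in untreated cells, and was 4.18-fold lower. Of its 4 probe sets, 3 were above the floor in untreated cells and all of those were lower after LPS, the others with log2 differences of -1.60 and, as a bound, -1.53. The fourth was below the floor on every array. With the mean over its probe sets the log2 difference of Tlr4 was -1.47.

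Among the other endosomal receptors, Tlr13, which in mice binds a sequence of bacterial ribosomal RNA, had a signal of 9.81 after LPS, against 11.01 in untreated cells, and was 2.30-fold lower. Tlr8, a receptor of the single-stranded RNA group, had 8.64 after LPS, against 9.58 in untreated cells, a 1.92-fold difference just short of the rule. This call depends on the normalization, since its log2 difference was -1.09 on the values as deposited and -1.06 after median centring, either of which makes 3 receptors lower. Tlr7, its neighbour on the X chromosome and a receptor for single-stranded RNA and guanosine analogues, had 10.27 after LPS, against 10.49 in untreated cells. This log2 difference of -0.22 was within the technical SD, and the other probe sets of Tlr7 gave 0.24 and -0.06. Tlr9, the receptor gene for unmethylated CpG DNA, had 7.75 after LPS, against 7.29 in untreated cells, a log2 difference of 0.46.

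Surface and endosomal receptors were not separated by their response to LPS. Of 5 surface receptors, 2 were higher and 1 lower, with a median log2 difference of 0.64 and a range of -2.06 to 2.68. Of 5 endosomal receptors, 1 was higher and 1 lower, with a median of -0.22 and a range of -1.20 to 3.33. Each set held a receptor with a large increase and one with a decrease, and the ranges overlapped. The surface median was 1.08 with Tlr5 left out, a choice made after seeing its values.

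**Figure D2:**
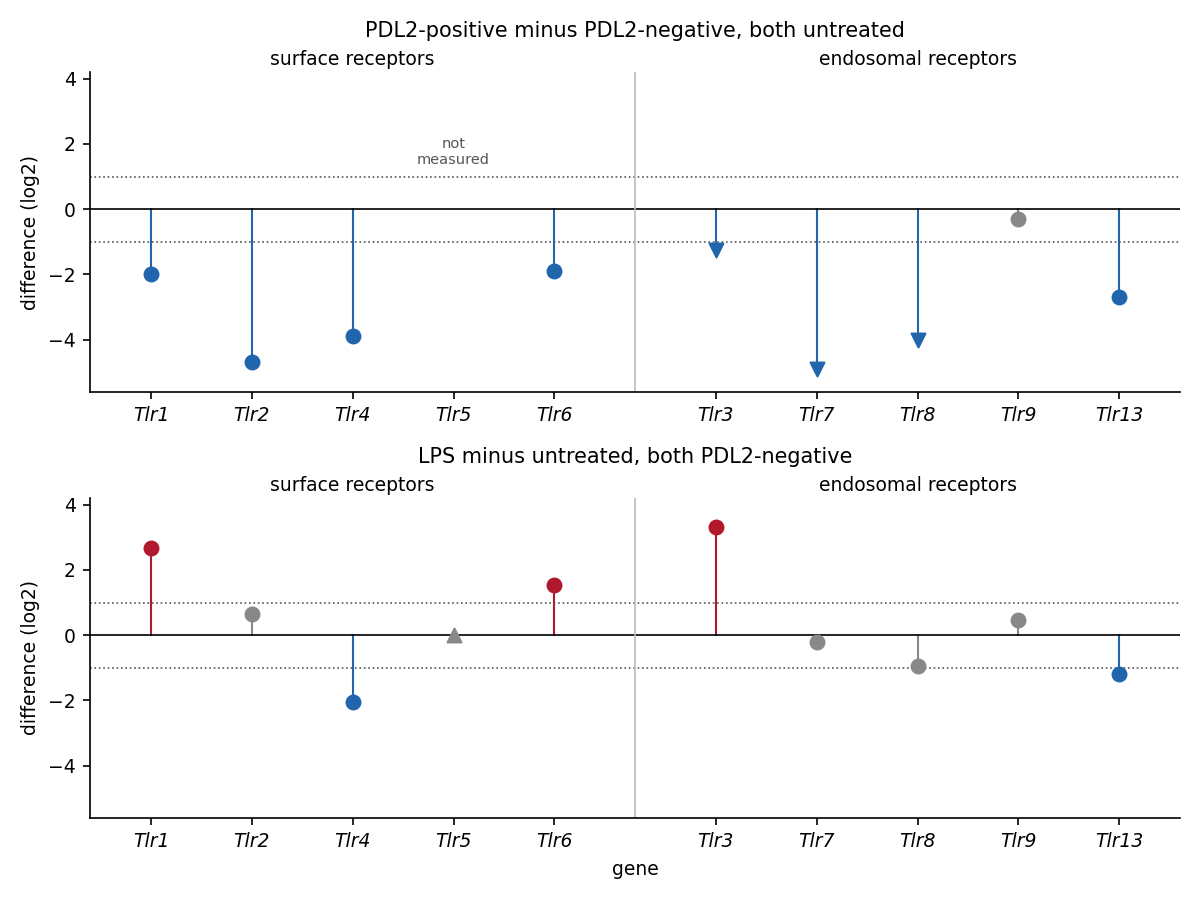
Log2 difference of each receptor between PDL2-positive and PDL2-negative untreated cells (top) and between LPS-treated and untreated PDL2-negative cells (bottom). Red and blue mark receptors higher or lower by at least 2-fold (dotted lines), grey the rest, and triangles mark differences with 1 array below the floor, which are lower bounds. In the top panel 8 receptors lie at or below -1.26 and Tlr9 at -0.31; in the bottom panel differences run from -2.06 for Tlr4 to 3.33 for Tlr3.

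The promoters of the 3 receptor genes that were higher after LPS, and that of Tlr9 as a gene that differed by less than 2-fold in every comparison, are shown as the 250 bases before the RefSeq start site (GRCm38.p6, read 5′ to 3′ on the gene's strand). RefSeq held such windows for 8 of the 10 genes, 10 windows in all. Capitals mark letters that match, on either strand, 1 of 5 motifs: an ISRE-like motif (GAAA, any 2 bases, GAAA), an NF-kB-like motif (GGG, any 2 bases, TTTCC), a PU.1-like motif (GAGGAAGT), an AP-1-like motif (TGANTCA) and the IRF core (AANNGAAA), the last added after the first search. ISRE-like and IRF core matches can overlap. For Tlr1 and Tlr6, which have 2 windows each, the one with the ISRE-like or PU.1-like match is shown.
Tlr3, chr8:45410381-45410630, minus strand: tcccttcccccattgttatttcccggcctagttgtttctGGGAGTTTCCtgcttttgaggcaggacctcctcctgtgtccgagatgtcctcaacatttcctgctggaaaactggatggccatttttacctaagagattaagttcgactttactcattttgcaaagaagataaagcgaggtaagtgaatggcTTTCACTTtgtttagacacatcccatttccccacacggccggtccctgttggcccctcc
Tlr6, chr5:64959167-64959416, minus strand: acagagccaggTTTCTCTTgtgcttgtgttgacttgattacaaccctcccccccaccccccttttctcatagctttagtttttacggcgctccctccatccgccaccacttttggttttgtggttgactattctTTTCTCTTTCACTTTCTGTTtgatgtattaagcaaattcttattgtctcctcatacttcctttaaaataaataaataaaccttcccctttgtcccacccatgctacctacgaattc
Tlr1, chr5:64933559-64933808, minus strand: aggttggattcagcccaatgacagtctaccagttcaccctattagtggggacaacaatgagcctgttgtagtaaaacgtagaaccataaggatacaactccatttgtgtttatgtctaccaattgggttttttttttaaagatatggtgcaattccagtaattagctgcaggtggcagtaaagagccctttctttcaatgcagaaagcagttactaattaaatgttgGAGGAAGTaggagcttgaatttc
Tlr9, chr9:106222348-106222597, plus strand: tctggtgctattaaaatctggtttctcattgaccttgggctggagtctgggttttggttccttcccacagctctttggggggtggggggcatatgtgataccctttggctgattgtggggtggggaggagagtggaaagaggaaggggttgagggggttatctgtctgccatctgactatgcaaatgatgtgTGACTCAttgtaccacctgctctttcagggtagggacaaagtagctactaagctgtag

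The Tlr3 window held an NF-kB-like match at -211 to -202 from the start site and an IRF core at -59 to -52. The Tlr6 window shown held overlapping ISRE-like matches between -116 and -101, and the Tlr1 window shown held a PU.1-like match at -23 to -16. The Tlr9 window held an AP-1-like match at -58 to -52. Of all 32851 windows of this length, 1.41% held the NF-kB-like motif, 2.98% the ISRE-like motif, 2.44% the PU.1-like motif, 6.75% the AP-1-like motif and 21.3% the IRF core. Among the 10 receptor windows the first 4 motifs were found in 1 window each and the IRF core in 4, among them 1 window of Tlr2. These matches describe letters, and binding of a factor was not measured here.

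The second comparison sets PDL2-positive against PDL2-negative DCs, both untreated. Of the 9 receptors measured, 8 were lower in PDL2-positive cells and 0 were higher. Over the 10926 measured genes, 13.0% were lower and 10.1% higher. The median log2 difference was -2.69 over the receptors, against 0.01 over all measured genes. The exception was Tlr9, at 6.97 in PDL2-positive and 7.29 in PDL2-negative cells, a 1.24-fold difference.

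Among surface receptors, Tlr2 had a signal of 7.70 in PDL2-positive cells, against 12.38 in PDL2-negative cells, and was 25.7-fold lower. Of the 10091 genes above the floor on both arrays, 0.36% had a larger decrease. Tlr4 had 6.26 in PDL2-positive cells, against 10.16 in PDL2-negative cells, and was 15.0-fold lower. Its next brightest probe sets were below the floor in PDL2-positive cells, which bounds their log2 differences at -3.23 and -1.53. The partners of Tlr2 were lower by less. Tlr1 had 5.89 in PDL2-positive cells, against 7.88 in PDL2-negative cells (3.97-fold lower), and Tlr6 had 6.30 in PDL2-positive cells, against 8.19 in PDL2-negative cells (3.71-fold lower). The PDL2-positive signals of both lay less than 1 log2 unit above the floor.

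Among endosomal receptors, Tlr7 had a signal of 5.24, below the floor, in PDL2-positive cells, against 10.49 in PDL2-negative cells, and was at least 30.1-fold lower. Its other probe sets, dimmer in PDL2-negative cells (6.30 and 6.27), were below the floor in PDL2-positive cells, which bounds their log2 differences at -0.72 and -0.69. Tlr8 had 5.05, below the floor, in PDL2-positive cells, against 9.58 in PDL2-negative cells, and was at least 16.03-fold lower. Tlr7 and Tlr8 are neighbours on the X chromosome, with 0 protein-coding genes between them in RefSeq, and both were without a signal above the floor in PDL2-positive cells. Tlr13 had 8.33 in PDL2-positive cells, against 11.01 in PDL2-negative cells, and was 6.44-fold lower. Tlr3 had 4.97, below the floor, in PDL2-positive cells, against 6.84 in PDL2-negative cells, and was at least 2.39-fold lower. The second Tlr3 probe set was below the floor on both arrays. The mean over both sets was below the floor in PDL2-positive cells and bounds the log2 difference at -0.27. With that mean Tlr3 was no longer called lower, though a bound does not show a difference below 2-fold.

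The medians of the surface and endosomal receptors lay close together here, -2.95 over 4 measured surface genes and -2.69 over 5 endosomal genes, with ranges of -4.68 to -1.89 and -4.91 to -0.31. The spread within each set was larger than the gap between them. That closeness depends on the floor and on the genes measured above it. With a floor at the 75th percentile of all values (7.80) the surface median was -1.37 and the endosomal median -2.68. Tlr3 and Tlr9 were below that floor on both arrays. The endosomal median then rested on Tlr7, Tlr8 and Tlr13 alone, at -2.68, -1.78 and -2.69. Every receptor but Tlr13 was below 7.80 in PDL2-positive cells, so the values of Tlr7 and Tlr8 are bounds. All the surface differences with this floor are bounds as well, Tlr4 at -2.36. The gap between the medians with this floor therefore does not show that the sets differed. With the floor at 5.58, the 3 differences that are lower bounds were all endosomal. With the floor at 7.80, 5 receptors were lower, namely Tlr2, Tlr4, Tlr7, Tlr8 and Tlr13, while the differences of Tlr1 and Tlr6 were bounded at -0.08 and -0.39. With the mean over probe sets Tlr4 and Tlr7 were below the floor of 5.58 in PDL2-positive cells, which bounds their log2 differences at -1.93 and -2.11.

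**Figure D3:**
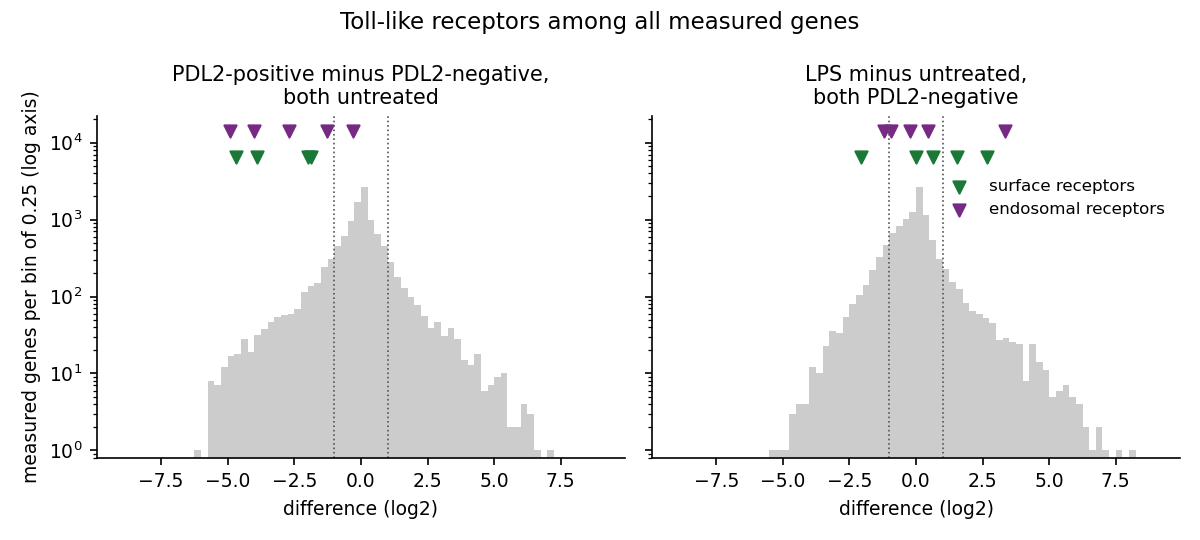
Log2 differences of all measured genes (grey bars, genes per bin of 0.25, log axis) with each measured surface (green) and endosomal (purple) receptor marked above, for the PDL2 comparison (left) and the LPS comparison (right). On the left all receptors lie left of 0, 8 of 9 beyond the dotted line at 2-fold, where 13.0% of all measured genes lie. On the right they lie on both sides of 0.

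Macrophage and monocyte marker genes moved with the receptors in this comparison. PDL2-positive cells had less signal for all 8 macrophage markers measured (median log2 difference -4.81). The log2 of their summed signal was 10.92 in PDL2-positive and 15.54 in PDL2-negative cells. Mrc1 was below the floor in PDL2-positive cells, and the other 7 were above it, C1qa at 7.46 in PDL2-positive and 12.86 in PDL2-negative cells. All 4 monocyte markers were lower (median -2.44), with summed signals of 10.35 in PDL2-positive and 12.44 in PDL2-negative cells. Of 5 measured markers of type 1 conventional DCs (cDC1), a subset rich in Tlr3, 4 were lower and Batf3 was higher, and Xcr1 was below the floor on every array. For 3 of those lower, Cadm1, Itgae and Naaa, other probe sets gave log2 differences as small as -0.68, -0.78 and -0.32, which may be bounds. Of 6 measured markers of plasmacytoid DCs, a subset rich in Tlr7 and Tlr9, 2 were lower (Siglech and Ccr9) and Pacsin1 was higher. None of 8 neutrophil and granulocyte precursor markers differed by 2-fold (median -0.02). Of the 4 B cell markers, Cd79a and Ms4a1 were below the floor on every array, Cd79b reached 5.58 in PDL2-positive, 5.60 in LPS-treated and 5.94 in PDL2-negative untreated cells, and Pax5 was above the floor in LPS-treated cells alone, at 5.80. The 4 mature DC markers (Ccr7, Fscn1, Ccl22 and Cd40) were all higher in PDL2-positive cells, with a median of 5.71. The part of these cell types in the receptor differences was not tested.

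After LPS the markers moved otherwise. Of the 8 macrophage markers, 1 was higher (Fcgr1) and 3 were lower, with a median of -0.49 and summed signals of 15.12 with LPS and 15.54 without. Of 4 monocyte markers 2 were lower (median -0.91), of 5 cDC1 markers 4 were lower (median -1.44), and of 8 neutrophil and granulocyte precursor markers 6 were lower (median -1.57). Other probe sets of the cDC1 markers Cadm1, Itgae and Naaa gave up to 0.13, -0.72 and 0.004, which may be bounds. Plasmacytoid DC markers were mixed, with 2 of 6 higher (Tcf4 by 1.39 and Ly6d by 1.07 on the log2 scale) and 0 lower by 2-fold (median 0.16). Siglech and Ccr9 differed by -0.59 and -0.43, and Pacsin1 and Cox6a2 by 0.23 and 0.10. All 4 mature DC markers were higher (median 5.01). The part of these markers in the LPS differences was likewise not tested.

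The third comparison sets PDL2-positive cells against the PDL2-negative cells given LPS, both with higher mature DC markers than PDL2-negative untreated cells. Of the 10 receptors, 8 were lower in PDL2-positive than in LPS-treated cells and 0 were higher. Over the 11042 measured genes, 12.6% were lower and 15.6% higher, and the medians were -3.24 over the receptors and -0.05 over all measured genes. This comparison shares its arrays with both others. Tlr2 was 40.1-fold lower, Tlr1 25.4-fold, Tlr6 10.7-fold, Tlr4 3.58-fold and Tlr13 2.80-fold. Tlr7 was at least 25.9-fold lower, Tlr3 at least 24.1-fold and Tlr8 at least 8.35-fold. Tlr9 was 1.71-fold lower and Tlr5 was at the floor. Tlr4 and Tlr13 were lower on both of these arrays than in PDL2-negative untreated cells, and their signals stood closest together among those that met the rule. With the mean over probe sets the Tlr4 difference was bounded at -0.46 on the log2 scale, and with the higher floor at -0.30. With that floor the difference of Tlr8 was bounded at -0.84. In each case PDL2-positive cells lay below the floor used, so the 2-fold call was lost without a difference below 2-fold being shown.

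Cell type markers differed in this comparison too. All 8 macrophage markers were lower in PDL2-positive than in LPS-treated cells (median -4.18), as were 2 of 4 monocyte markers (median -2.00). Of 6 plasmacytoid DC markers 4 were lower and 1 higher, and of 5 cDC1 markers 2 were lower and 1 higher, while 6 of 8 neutrophil and granulocyte precursor markers were higher (median 1.22) and 0 lower. Naaa was among the lower cDC1 markers, and another of its probe sets gave -0.32, which may be a bound. The mature DC markers were not alike in the 2 groups: Cd40 was 12.5-fold lower in PDL2-positive cells (9.74, against 13.39 in LPS-treated cells), and Ccr7 and Fscn1 were 3.10-fold and 2.52-fold higher. The part of these cell types in the receptor differences was not tested.

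The rest of the pathway was read through 56 genes listed by role. In the PDL2 comparison 20 of 49 measured genes were lower and 5 higher, with a median log2 difference of -0.39, beside 13.0% lower and 10.1% higher over all measured genes, so that the share of higher genes was close to that background. In the LPS comparison 5 of 48 measured genes were lower and 16 were higher, with a median of 0.34, beside 13.8% lower and 9.17% higher over all measured genes.

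Among co-receptors, 4 of 5 measured genes were lower in PDL2-positive cells (median -2.68). Cd14, which hands LPS to the Tlr4 complex, had 7.65 in PDL2-positive cells, against 12.11 in PDL2-negative cells (22.1-fold lower). Cd36, a partner of Tlr2, was 7.03-fold lower, although another of its probe sets gave -0.97 on the log2 scale, which may be a bound. Ly96, which encodes MD-2, the subunit of the Tlr4 complex that binds LPS, did not follow Tlr4. It had 8.65 in PDL2-positive cells, 9.09 after LPS and 8.15 in PDL2-negative untreated cells. After LPS, Cd14 was 3.37-fold higher (13.86 with LPS, against 12.11 without), opposite to Tlr4, and Ly86 was 2.40-fold lower.

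Of 11 genes for receptor trafficking and processing, PDL2-positive cells had 7 lower and 1 higher (median -1.34). Unc93b1, the escort that carries nucleic acid receptors to endosomes, had 9.94 in PDL2-positive cells, against 11.87 in PDL2-negative cells, and was 3.83-fold lower. The lysosomal protease genes Ctsk and Ctsl had log2 differences of -4.64 and -3.32. Another probe set of Ctsl was below the floor in PDL2-positive cells, which bounds its log2 difference at -0.54. The higher gene was Ap3b1, a subunit of the AP-3 sorting complex, with a log2 difference of 1.77. After LPS, 3 of 11 were lower and 0 higher (median -0.61). They were Cnpy4 (-2.43), Cnpy3 (-1.79), whose product helps Toll-like receptors fold, and Slc15a4 (-1.23), while Unc93b1 differed by -0.36.

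Among adaptors, 2 of 5 measured genes were lower in PDL2-positive cells (median -0.59) and the same 2 were higher after LPS (median 0.91). Myd88, the adaptor of all the receptors here except Tlr3, had 9.01 in PDL2-positive, 12.13 in LPS-treated and 10.48 in PDL2-negative untreated cells. Pik3ap1 differed by -2.67 in the PDL2 comparison and 2.03 in the LPS comparison. Ticam1, which encodes TRIF, had 7.35 in PDL2-positive, 8.48 in LPS-treated and 7.74 in PDL2-negative untreated cells, below 2-fold in both comparisons.

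Among kinases, ubiquitin ligases and transcription factors, PDL2-positive cells had 2 of 13 measured genes lower and 1 higher (median 0.14). Ikbke differed by -2.43 and Irf7 by -1.18, and Traf6 by 2.07, with a lower bound of 0.78 in another probe set. After LPS 5 of 13 were higher and 0 lower (median 0.79), led by Irf7 (4.36), a transcription factor of interferon genes, and Ikbkg (2.33, with probe sets from 0.68 to 2.70). Among inhibitors, PDL2-positive cells had 1 of 6 measured genes lower and 3 higher (median 0.89). The lower gene was Irak3, which encodes the inhibitory kinase IRAK-M (-1.57). Sigirr, a receptor that restrains the pathway, was 4.62-fold higher. After LPS 3 of 6 were higher and 0 lower (median 1.36), namely Socs1 (4.63), Tnfaip3 (4.27) and Irak3 (2.52).

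Cytosolic nucleic acid sensors offer a set to place beside the endosomal receptors. After LPS, 5 of 8 were higher and 1 was lower (median 2.40), where 1 of 5 endosomal receptors was higher (median -0.22). Ifih1, a sensor of long double-stranded RNA, differed by 3.87 and Dhx58 by 3.50, near the 3.33 of Tlr3. In PDL2-positive cells 4 of 8 were lower and 0 higher (median -0.95), among them Ddx58, which encodes RIG-I (-2.37), and Zbp1 (-1.75). Other probe sets of these genes gave -0.88 and -0.55, which may be bounds, since values below the floor were raised to it. The cytokine genes that these pathways induce were measured too. Il6 had 7.57 in PDL2-positive cells, 13.79 after LPS and 4.13, below the floor, in PDL2-negative untreated cells. Tnf had 6.41 in PDL2-positive, 12.48 in LPS-treated and 8.11 in PDL2-negative untreated cells.

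**Figure D4:**
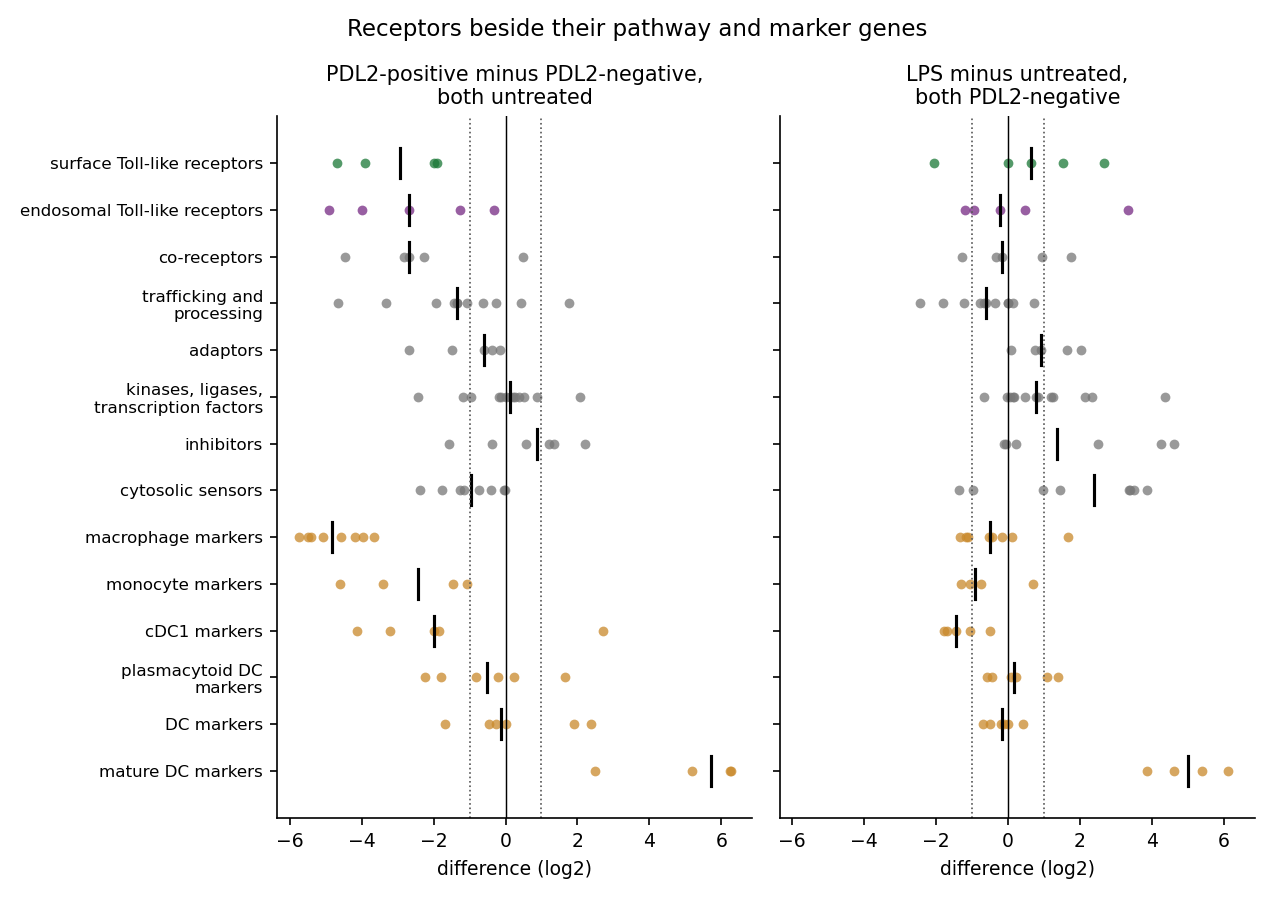
Log2 differences of measured genes by list, with black bars at the medians, for the PDL2 comparison (left) and the LPS comparison (right). Surface (green) and endosomal (purple) receptors are set above pathway genes (grey) and cell type markers (ochre), and dotted lines mark 2-fold. On the left both receptor sets lie nearest the co-receptors and the monocyte and cDC1 markers, with medians of -2.95 and -2.69 against -2.68, -2.44 and -2.00.

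For the 6 receptors above the floor on all 3 arrays, the genes most like them in both differences (LPS and PDL2) were found by Euclidean distance among 9850 genes. Nearest to Tlr4 were Cd300ld at a distance of 0.08 and Ramp1 at 0.17 on the log2 scale. Nearest to Tlr6 were Nlrp3 (0.06) and Septin11 (0.10), and nearest to Tlr13 were Clec7a (0.10) and Txnip (0.16). Tlr2 lay nearest to Ptpre (0.22) and Msr1 (0.24), Tlr1 to Spata13 (0.32) and Slpi (0.40), and Tlr9, in the dense centre of the distribution, to Gstm3 and Ppp6r1 (both 0.02). A pattern over 3 arrays holds only 2 independent differences, so many genes lie close by, and no receptor was among the 2 nearest of another.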

How the data were processed

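The deposited values are the authors' log2 signals, 1 per probe set and array, as their range shows; the background correction, normalization and summary method are not given in the sources used here. Of 38546 probe sets, 13 controls were left out. Because the quartiles of the 3 arrays differed by more than 0.1, values were quantile-normalized over 38533 probe sets (Python 3.11.15, numpy 2.4.6, pandas 2.3.3). The annotation named 1 gene for 33987 probe sets and several for 449, which were not used; symbols were updated through RefSeq for 33800. Where a gene had several probe sets, the one of highest mean signal stood for it. The floor was the 50th percentile, and 2-fold was the rule for higher and lower. With 1 array per group nothing was tested between groups, and precision is limited by the number of arrays. The functions were tested on simulated data.

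The receptors, lists and alternatives were chosen with earlier results of these data known. All 10 receptors were named; of each pathway list, the 2 genes with the largest difference in the LPS and PDL2 comparisons were named, with Ly96, Cd14, Unc93b1, Myd88, Ticam1, Irak3, Il6 and Tnf always. Other genes (Slc15a4, Ap3b1 and the markers) were named after their values were seen. Ticam2, Irak4, Traf3, Chuk, Il1rl1 and Tlr11 were not analysed here, nor were some markers, among them Runx2, Clec9a and Ly6c2. Alternatives were no further normalization, median centring, a floor at the 75th percentile, no floor, means over probe sets, and 1.5-fold and 3-fold rules.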

Additional observations from a re-analysis of the deposited data

How the results depend on the processing

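No paired analysis was possible because each group had 1 array. Of 135 recomputed differences of single receptors, 110 stayed within the technical SD of the comparison, 25 moved by more and 0 changed direction from beyond 2-fold. The count of receptors lower after LPS was 1 at 3-fold, against 2, and 3 with no further normalization, with median centring and at 1.5-fold, and that of receptors lower in the PDL2 comparison was 5 with the floor at the 75th percentile, against 8. Medians moved more. For surface receptors after LPS (0.64) the median was 1.05 with no further normalization, 1.07 with median centring and 1.08 with the higher floor or, added after seeing the data, with Tlr5 left out; the endosomal median (-0.22) was -0.58 with the higher floor. In the PDL2 comparison the surface median (-2.95) was -1.37 with the higher floor, -1.99 with no floor and -1.96 with means over probe sets, and the endosomal median (-2.69) was -2.68 with the higher floor and -2.11 with means over probe sets. Between PDL2-positive and LPS-treated cells the surface median (-3.41) was -4.01 with no further normalization, -4.04 with median centring, -2.33 with the higher floor and -4.04 with Tlr5 left out. There the endosomal median (-3.06) was -1.92 with the higher floor, -3.59 with no floor and -2.09 with means over probe sets. The higher floor shortens any difference whose dimmer side lies below 7.80, and Tlr5 enters or leaves a median with the scaling since its signal equals the floor. With no floor Tlr5 also entered the surface median of the PDL2 comparison, which then was the -1.99 of Tlr1. The differences of Tlr1, Tlr2, Tlr4 and Tlr6 were unchanged there. With the higher floor Tlr9 left the endosomal median of each comparison, since neither array lay above it. Tlr3 left that of the PDL2 comparison for the same reason. Signal over background limits Tlr3, Tlr7 and Tlr8 in PDL2-positive cells to bounds, and with means over probe sets Tlr4 as well.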

Other observations

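Tlr12, which in mice encodes a receptor for the protein profilin of protozoa and is not among the 10 receptors, had its highest signal in PDL2-positive cells by 1 of its 2 probe sets. Its brighter probe set had 6.51 in PDL2-positive cells, 5.00 after LPS and 5.34 in PDL2-negative untreated cells, the last 2 below the floor, which puts it at least 0.94 higher on the log2 scale in PDL2-positive cells than in either. The other probe set was above the floor after LPS alone, by 0.06 on the log2 scale, so it gave no level clear of background. The lower bound of 0.94 falls short of the 2-fold rule, which does not show that the difference itself does. No replicate bears on it.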
